A study of Mus musculus with 50 samples.

Results

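G protein-coupled receptor (GPCR) genes were followed in V6.5 mouse embryonic stem cells that lost the kinase Cdk12. The set holds the 77 genes, of 12819 in the authors' deposited table, whose names carry a prefix of a GPCR family, such as Hrh, Ltb4r, P2ry, S1pr, Lpar, Fzd, Adora, Adr, Cxcr, Lgr or a numbered Gpr. The set was selected on results of these same data, because Hrh1, Ltb4r1 and Ltb4r2 had been seen to rise, so every change below describes the set and is not a test of it. All 77 names were found in the NCBI annotation of GRCm38.p6, 9 of them as an older symbol, for example Gpr56 for Adgrg1 and Gpr133 for Adgrd1. The name pattern also took in 11 genes that do not encode a GPCR, which leaves 66 receptors. These 11 are Adrbk1 and Adrbk2 (receptor kinases), Htr3a (an ion channel subunit), Gpr172b (a riboflavin transporter), Gpr89, Gpr107, Gpr108, Gpr137, Gpr137b and Gpr180 (other membrane proteins) and Gpr137b-ps (a pseudogene).

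Receptors of this superfamily cross the plasma membrane several times, bind a ligand outside the cell and switch on heterotrimeric G proteins inside it. The G protein subunits then act on adenylyl cyclases, phospholipases, guanine nucleotide exchange factors or ion channels, and receptor kinases and arrestins end the signal. Frizzled proteins share the fold but serve mainly as Wnt receptors, a pathway long known for its part in embryonic stem cell self-renewal. Cdk12 is a kinase that, bound to cyclin K, acts on the tail of RNA polymerase II during transcription.

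The knockout cells were clones 28 and 36, Cdk12 -/- lines derived from V6.5, a C57Bl/6-129 line grown on gelatin with LIF. Both carried the Cdk12 Tg+ allele, a doxycycline (Dox) inducible, Flag-HA tagged Cdk12 transgene kept on by 1 µg/mL Dox, and were sampled at 0, 24 and 48 h after Dox was withdrawn. PolyA RNA was sequenced from 4 libraries per time, 2 from each clone; the column names of the authors' deposited table give the times compared and not the libraries behind them. Parental floxed cells of clone 21 (Cdk12 Fl/Fl; Tg-, with LoxP sites around exon 4) had been given Dox for 17 days before its withdrawal and gave 2 libraries per time, as the control for Dox itself. Each line is 1 clone, RNA integrity numbers lay between 9.1 and 10, and the 32 libraries made from chromatin of clone 36 were not analysed here. Values per library and total counts per library are not used here, since the authors' deposited table holds comparisons, so no SD, n or depth stands beside a value. The spread among replicates is reflected only in the authors' posterior probability of differential expression and adjusted p-value, for which the labels give biological duplicates and no statement on separate cultures.

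Each change is the log2 ratio of 24 h or 48 h without Dox over 0 h, so a positive value means more RNA after Dox withdrawal. The deposited sign runs the other way and was reversed, a direction inferred from how the column names order the times and from the Cdk12 gene itself. In the authors' deposited table Cdk12 had a change of -0.61 at both times after rounding, with posterior probabilities of 0.0704 and 0.266, and was therefore not called at either time. Reads from the transgene and from what remains of the knocked-out gene were not separated. A gene was called where its posterior probability was at least 0.95. In these bulk libraries, fewer cells with a receptor and less receptor RNA per cell cannot be told apart. The comparisons at 24 h and at 48 h share their 0 h libraries, and their values are set side by side without a test of one against the other.

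Of the defining embryonic stem cell markers, 10 of 10 were present in the authors' deposited table and 0 were called at 48 h, with a median change of -0.07 and a range of -0.46 to 0.39. The same rule called 3.72% of all genes as risen and 3.97% as fallen at 48 h, so nothing is read from 0 calls among 10 genes. Some markers of other cell types were called. The primitive endoderm list, present with 5 of 5 genes, had a median of 0.79 at 48 h with Gata4 (0.85) and Gata6 (0.79) called as risen, and trophoblast markers had a median of 0.71 with 0 of 4 called. Of 9 immune markers, 2 had a row in the authors' deposited table, Cd3e (-2.04) and Itgam (-1.95), and both were called as fallen at 48 h. Fibroblast markers had 5 of 8 rows and a median of -0.09, with 1 called, Col1a1 at 0.89. Neural markers had 3 of 5 rows and a median of -0.18, with 1 called, Neurod1 at 2.53. Both Col1a1 and Neurod1 carry the deposited mark for a Dox effect at 48 h. Expression levels are not used here, so no summed level of a marker list is given, and the part of other cell types in the receptor changes was not tested.

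Promoter sequences of 4 members are shown first, because these genes passed both deposited statistics at 48 h and have an entry among the RefSeq promoters of GRCm38.p6. Each is the 250 bases before the annotated start, 5′ to 3′ on the gene's strand, with each GC box (GGGCGG or its complement CCGCCC) in capitals. Ltb4r1 lies at chr14:55765712-55765961 (plus strand), S1pr3 at chr13:51408368-51408617 (plus strand), Lgr6 at chr1:135105277-135105526 (minus strand) and Fzd7 at chr1:59481897-59482146 (plus strand). The first 3 rose and Fzd7 fell.
Ltb4r1: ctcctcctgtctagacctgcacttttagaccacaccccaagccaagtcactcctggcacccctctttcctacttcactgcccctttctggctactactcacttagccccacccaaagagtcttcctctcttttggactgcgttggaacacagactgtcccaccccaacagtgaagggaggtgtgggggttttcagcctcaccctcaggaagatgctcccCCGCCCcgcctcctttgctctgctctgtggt
S1pr3: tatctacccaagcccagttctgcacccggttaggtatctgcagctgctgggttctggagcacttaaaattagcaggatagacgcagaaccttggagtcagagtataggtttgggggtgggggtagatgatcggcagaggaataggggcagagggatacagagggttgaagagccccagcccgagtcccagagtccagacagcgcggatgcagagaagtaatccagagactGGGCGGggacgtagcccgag
Lgr6: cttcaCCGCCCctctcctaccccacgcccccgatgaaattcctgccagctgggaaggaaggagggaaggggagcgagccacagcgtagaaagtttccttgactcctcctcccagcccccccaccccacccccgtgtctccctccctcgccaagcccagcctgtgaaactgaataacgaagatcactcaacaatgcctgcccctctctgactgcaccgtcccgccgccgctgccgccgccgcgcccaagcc
Fzd7: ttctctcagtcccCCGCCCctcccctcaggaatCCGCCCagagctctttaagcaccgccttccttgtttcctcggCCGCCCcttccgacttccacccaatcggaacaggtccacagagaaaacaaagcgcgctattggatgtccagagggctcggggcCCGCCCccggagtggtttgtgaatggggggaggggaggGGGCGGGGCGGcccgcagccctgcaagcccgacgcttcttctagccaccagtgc
Fzd7 has 6 GC boxes in this window, the last pair sharing a base, and each of the other 3 genes has 1. Its GC content is 65.2%, as is that of Lgr6, while S1pr3 has 56.4% and Ltb4r1 56.8%. A match of letters is a description and not a binding site.

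At 48 h without Dox, 9 members were called as risen, which is 12.5% of the 72 members with a posterior probability, and the same rule called 3.72% of all genes with one as risen. Another 2 members were called as fallen, which is 2.78% of the members, against 3.97% of all genes. The pattern was chosen with this contrast in view, so nothing is read from these shares. The counts of calls by family below stand beside the same shares of all genes. The risen members were Ltb4r1, Ltb4r2, Lgr6, S1pr3, P2ry6, Gpr75, Hrh1, Gpr137b-ps and Celsr1, and the fallen ones were Fzd7 and Gpr133. At 24 h, 1 of 77 members was called as risen, Hrh1, and 0 as fallen, where the rule called 0.450% of all genes as risen and 0.679% as fallen. The median change of the members in the authors' deposited table was 0.05 at 24 h and 0.08 at 48 h, and over all genes it was 0.01 at both times.

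The spread among members was wider than their median shows. At 48 h, 30 of 74 members with a change lay at least 0.5 from 0 on the log2 scale, which is 40.5%, against 19.7% of all genes, and the quartiles ran from -0.18 to 0.55 for members and from -0.22 to 0.23 for all genes. At 24 h, 11 members lay that far out, which is 14.3%, against 8.09% of all genes. Of the 74 members, 43 stood above 0 and 31 below at 48 h, and at 24 h the split was 43 above and 34 below. A further 27 of the 63 uncalled members with a change lay within 0.2 of 0 at 48 h.

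The second deposited statistic, an adjusted p-value whose test and groups were not given in the sources used here, was at most 0.05 for 4 members that were higher and 1 that was lower at 48 h, of 72 tested. Over all genes it passed 1.72% as higher and 1.99% as lower. These 5 members, Ltb4r1, Ltb4r2, Lgr6, S1pr3 and Fzd7, were also called by the posterior probability, and the other 6 called members did not pass it. At 24 h it passed 0 of 73 members in either direction, with 0.0159% of all genes passing as higher and 0.151% as lower. Unadjusted p-values are not part of the authors' deposited table. The deposited mark for a Dox effect stood on 1 of 74 members at 48 h, Lgr6, and on 149 of 12766 genes.

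**Figure D1:**
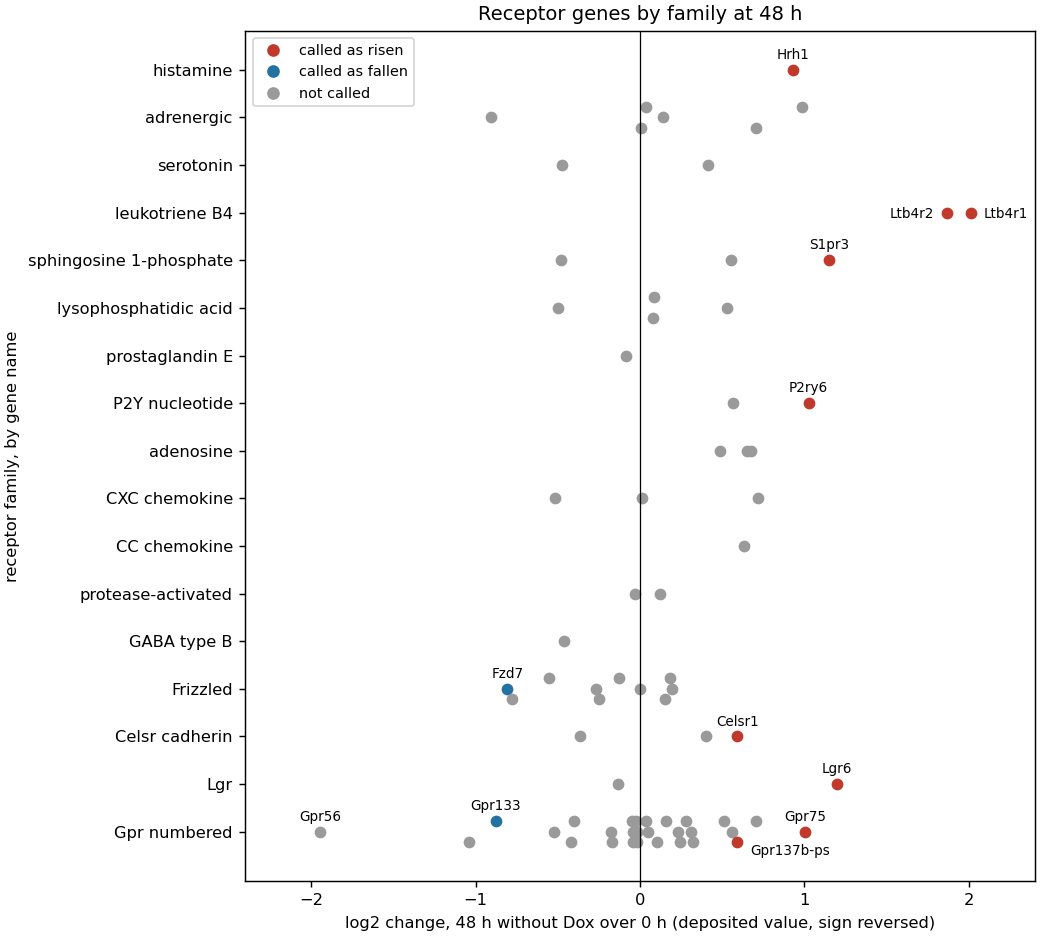
Log2 change at 48 h without Dox over 0 h (horizontal axis) for the 74 members with a deposited change, 1 point per gene, in rows by family name; the adrenergic and serotonin rows include the kinases Adrbk1 and Adrbk2 and the channel Htr3a. Red points were called as risen, blue as fallen and grey not called. Ltb4r1 at 2.01 and Ltb4r2 at 1.86 lie farthest right, and the uncalled Gpr56 at -1.94 lies farthest left.

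The leukotriene B4 receptors had the largest rises among called members at 48 h; both are genes whose rise had led to the choice of the set. This lipid is a chemoattractant made by leukocytes, and Ltb4r1 encodes its high-affinity receptor and Ltb4r2 its low-affinity one. In the authors' deposited table Ltb4r1 stood at 0.95 at 24 h and 2.01 at 48 h, a 4.04-fold rise at 48 h with a posterior probability of 1.00 and an adjusted p of 7.45e-06. Ltb4r2 stood at 0.83 at 24 h and 1.86 at 48 h per the authors' deposited table, a 3.64-fold rise at 48 h with a posterior probability of 1.00 and an adjusted p of 0.00183. At 24 h neither was called, with posterior probabilities of 0.0914 and 0.0269. Among the 461 genes called as risen at 48 h they ranked 6th and 9th by size. Their genes are adjacent in the annotation, and Ltb4r2 overlaps Cideb there; whether the libraries kept strand was not given in the sources used here, so reads of overlapping genes cannot be told apart.

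Leukotriene and prostaglandin receptors belong to the wider class of receptors for lipid mediators, which had 10 members, with sphingosine 1-phosphate and lysophosphatidic acid receptors as the rest. Of these, 3 rose and 0 fell at 48 h, 7 stood above 0 and 3 below, and the median change was 0.10 at 24 h and 0.31 at 48 h. Ltb4r1 and Ltb4r2, used in choosing the set, make up all but 1 of these rises, and 3.72% of all genes rose, so the count and the median are a description. S1pr3, a sphingosine 1-phosphate receptor coupled to several G proteins, stood at 0.46 at 24 h and 1.15 at 48 h per the authors' deposited table, a 2.22-fold rise at 48 h (posterior probability 1.00, adjusted p 0.0153). Its relatives did not share a direction. S1pr4, known from lymphocytes, had 0.23 and 0.55 in the authors' deposited table, with a posterior probability of 1.7e-23 at 48 h, and S1pr2 had -0.24 and -0.48, with no posterior probability at 48 h. Among lysophosphatidic acid receptors, Lpar6 had -0.04 at 24 h and 0.53 at 48 h, Lpar1 -0.10 and -0.50, Lpar2 -0.02 and 0.08, and Lpar5 0.30 and 0.09 in the authors' deposited table, none called. Ptger4, a prostaglandin E2 receptor coupled to Gs, had -0.41 at 24 h and -0.09 at 48 h.

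Amine receptors, 7 in number, gave the 1 call at 24 h. Hrh1, the histamine receptor that acts through Gq, stood at 1.00 at 24 h and 0.93 at 48 h per the authors' deposited table, a rise just under 2-fold (0.998 on the log2 scale) and one of 1.9-fold. Its posterior probabilities were 0.984 and 0.975 and its adjusted p-values 0.816 and 0.192, so the deposited statistics differed on it at both times. Of the 11 members called at 48 h, 10 were farther from 0 at 48 h than at 24 h, and Hrh1 was the exception. These 10 were called at 48 h only, which favours a larger change at that time. Nothing is read from this count. Hrh2, the histamine receptor coupled to Gs, had -0.49 at 24 h with a posterior probability of 0.000106 and has no 48 h value in the authors' deposited table.

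Adrenergic receptors respond to adrenaline and noradrenaline and lay on both sides of 0, with none called. Adrb1, the main beta-adrenergic receptor of heart, had -0.49 at 24 h and -0.90 at 48 h per the authors' deposited table, with posterior probabilities of 0.0133 and 0.425. Adra2b had 0.28 and 0.70 in the authors' deposited table (posterior probability 0.448 at 48 h), while Adrb3, the receptor of fat, had -0.07 and 0.00. Of serotonin receptors, Htr5b had 0.24 at 24 h and -0.47 at 48 h. Gabbr1, a subunit of the GABA type B receptor, had 0.06 and -0.46 in the authors' deposited table, with a posterior probability of 0.379 at 48 h.

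Receptors for nucleotides and adenosine, 5 in number, stood above 0 at both times, with median changes of 0.44 at 24 h and 0.65 at 48 h. P2ry6, the receptor for UDP, was the 1 of them that was called. It stood at 0.45 at 24 h and 1.03 at 48 h per the authors' deposited table, a 2.04-fold rise at 48 h with a posterior probability of 1.00 and an adjusted p of 0.0599. P2ry2, which responds to ATP and UTP, had 0.65 at 24 h and 0.57 at 48 h per the authors' deposited table, with posterior probabilities of 0.109 and 0.521. The adenosine receptors Adora1, coupled to Gi, and Adora2a and Adora2b, coupled to Gs, had 0.65, 0.68 and 0.49 at 48 h per the authors' deposited table, with posterior probabilities of 0.260, 0.158 and 0.163. At 24 h these 3 genes had 0.44, 0.43 and 0.06.

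Chemokine receptors guide cell migration, and 0 of 4 were called. Cxcr4, the receptor for Cxcl12, had 0.10 at 24 h and 0.72 at 48 h per the authors' deposited table, with a posterior probability of 0.708 at 48 h. Cxcr7, which takes up the same ligand without classical G protein signalling, had -0.51 and -0.52 in the authors' deposited table, with 0.121 at 48 h. Ccr4 had 0.24 and 0.63, and Cxcr2 had -0.43 and 0.01. The receptors cleaved by proteases, F2r for thrombin and F2rl1 for trypsin-like enzymes, had 0.18 and 0.23 at 24 h, then 0.12 and -0.03 at 48 h per the authors' deposited table.

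The receptors tied to Wnt signalling, given here by family, lay on both sides of 0 at 48 h within each family. Of the 10 Frizzled genes, 1 fell and 0 rose at 48 h, with 7 below 0 and 3 above and a median of -0.19. Over all genes, 3.97% were called as fallen and 3.72% as risen. The 1 call was Fzd7, so nothing is read from the count. Fzd7, the Frizzled gene best known from embryonic stem cells, stood at -0.56 at 24 h and -0.81 at 48 h per the authors' deposited table, which at 48 h is 57.2% of the 0 h level. Its posterior probabilities were 0.579 and 1.00 and its adjusted p at 48 h was 0.0234. Fzd2 had -0.50 and -0.56 in the authors' deposited table (0.647 at 48 h), and Fzd8 had -0.44 and -0.78 (0.237 at 48 h), neither called. The highest Frizzled value at 48 h was 0.20, of Fzd6.

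Lgr6 and Lgr4 encode receptors for R-spondins, secreted proteins that raise Wnt signalling. Lgr6 stood at 0.54 at 24 h and 1.20 at 48 h per the authors' deposited table, a 2.3-fold rise at 48 h with a posterior probability of 1.00 and an adjusted p of 0.00268. It is the member with the mark for a Dox effect at 48 h, and the floxed control cells' own change was not analysed here, so the part of Dox in this rise was not tested here. Lgr4 had -0.22 and -0.13, not called. Of the 3 Celsr cadherins, which act in planar cell polarity, Celsr1 stood at 0.38 at 24 h and 0.59 at 48 h per the authors' deposited table, a 1.51-fold rise with a posterior probability of 0.993 and an adjusted p of 0.208. Celsr2 had 0.40 and Celsr3 -0.37 at 48 h per the authors' deposited table, neither called.

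**Figure D2:**
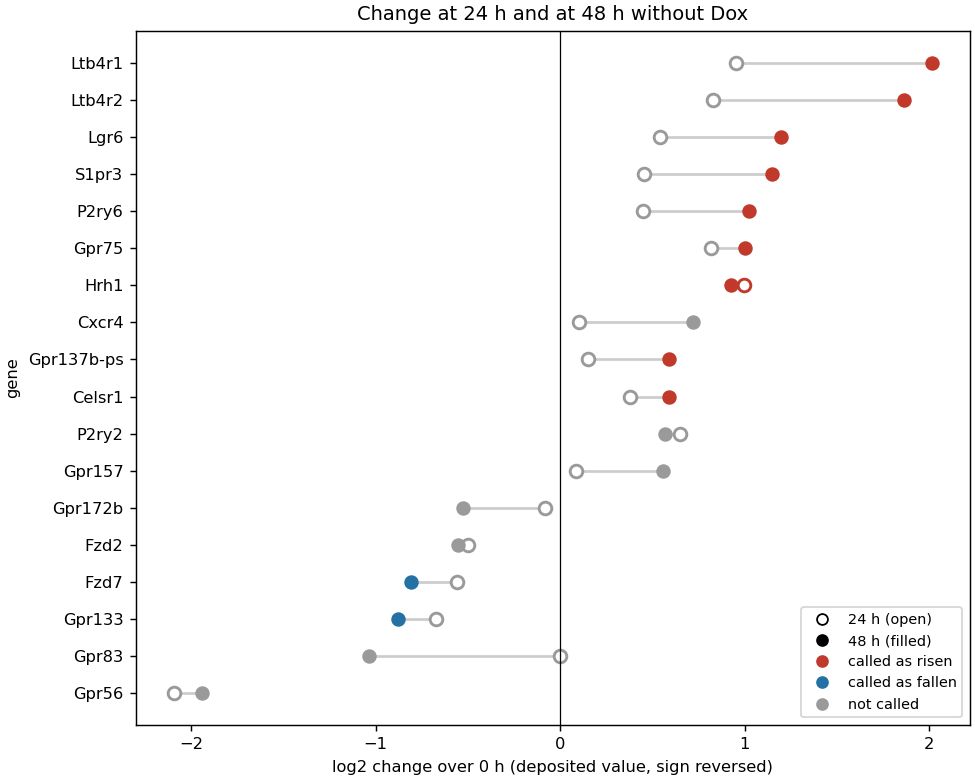
Log2 change over 0 h (horizontal axis) at 24 h (open circles) and 48 h (filled circles) for the 11 called members, 6 uncalled members with a posterior probability of at least 0.5 at 48 h, and Gpr56, 1 row per gene. Ltb4r1 stands at 0.95 and 2.01, while Hrh1 at 1.00 and 0.93 has both circles red, the only member called at both times.

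Adhesion receptors, which carry long extracellular regions and are usually cut within the protein, numbered 8 with the Celsr genes, and 6 of them stood below 0 at 48 h. Gpr133, a member coupled to Gs, had -0.67 at 24 h and -0.88 at 48 h per the authors' deposited table, which at 48 h is 54.5% of the 0 h level. Its posterior probability was 3.69e-26 at 24 h and 0.951 at 48 h, the lowest of any called member, and its adjusted p at 48 h was 0.146. The uncalled member with the highest posterior probability at 48 h was Gpr83, at 0.00 and -1.04. Its value of 0.809 lay well below the 0.95 needed for a call. The lowest value of all members, at either time, belonged to the adhesion receptor Gpr56, known from cortical development, at -2.09 and -1.94 in the authors' deposited table. Its posterior probabilities of 0.128 and 0.261 left it uncalled at both times, although its 48 h value is 26% of the 0 h level.

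Size of change and call did not go together throughout the set. The smallest change of a called member at 48 h was 0.59, and 11 uncalled members lay at least that far from 0, 7 above and 4 below. A posterior probability under 1e-05 stood on 6 members at 24 h and 4 at 48 h; those at 24 h had changes as far out as -0.67 (Gpr133) and 0.43 (Adora2a), and Ccr4 had 2.29e-22 at 48 h beside a change of 0.63 in the authors' deposited table. Every called gene in the authors' deposited table changed by at least 1.43-fold.

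**Figure D3:**
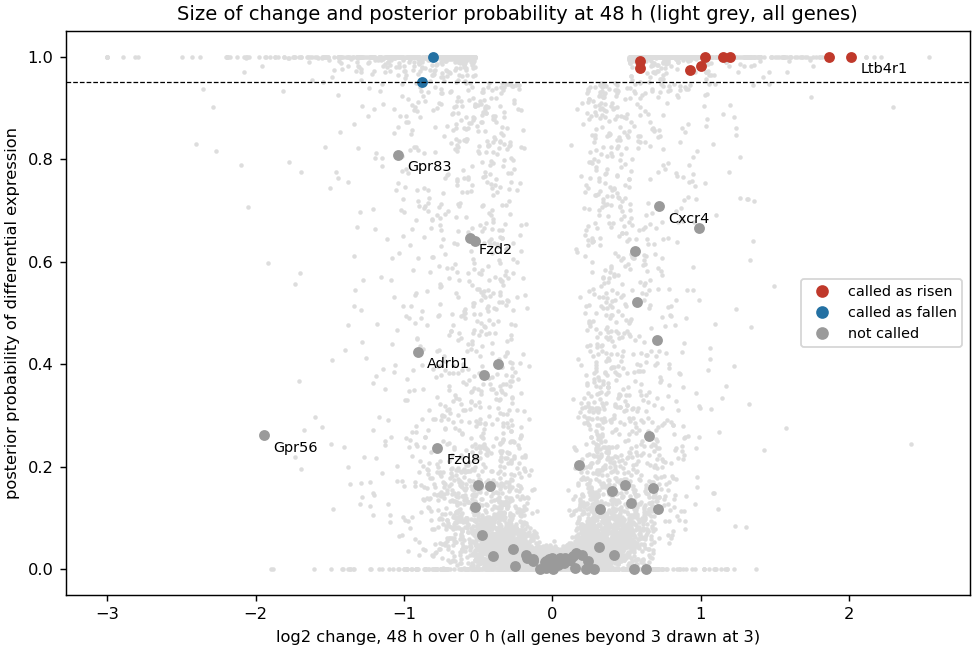
Log2 change at 48 h over 0 h (horizontal axis) against the deposited posterior probability of differential expression (vertical axis, dashed line at 0.95) for the 72 members with a posterior probability (large points) and all such genes (light grey). Gpr56 at -1.94 has a posterior probability of 0.261, while called members begin at 0.59 in size.

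Receptors known by a Gpr number, many of them without an agreed ligand, made up 22 members that encode a GPCR, and of the 20 with a 48 h change 10 stood above 0 and 10 below, with a median of 0.02. Gpr75 was the 1 of these 22 that rose, at 0.82 at 24 h and 1.00 at 48 h per the authors' deposited table, a 2-fold change with posterior probabilities of 0.302 and 0.982 and an adjusted p of 0.0552 at 48 h. Gpr75 overlaps Erlec1 in the annotation, which had -0.23 at 48 h. Gpr157 had 0.08 and 0.56 in the authors' deposited table (0.621 at 48 h), and Gpr35, a receptor of the gut, had 0.33 and 0.71 (0.118 at 48 h). Gpr161, which restrains Hedgehog signalling at the primary cilium, had 0.38 and 0.31, and the constitutively active Gpr3 had 0.22 and 0.23. The proton sensor Gpr4 had 0.34 at 24 h and -0.02 at 48 h per the authors' deposited table.

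Posterior probabilities at 48 h are missing for 5 members. For Gpr153 a change of 0.51 and for S1pr2 one of -0.48 are given in the authors' deposited table, and Gpr39 and Hrh2 are among the 3 members with no 48 h change. Of the 11 genes that are not GPCRs, 1 was called, Gpr137b-ps at 0.15 and 0.59 (1.51-fold, posterior probability 0.977, adjusted p 0.355). This transcribed pseudogene derives from its neighbour Gpr137b, at 0.00 and 0.32 in the authors' deposited table, so the split of reads between them is uncertain. The others ran from -0.52 (Gpr172b) to 0.41 (Htr3a) at 48 h, and the receptor kinases Adrbk1 and Adrbk2 had 0.14 and 0.04. Without the pseudogene, 8 members rose.

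Lists of genes through which receptors signal are given by their counts, beside 3.72% of all genes called as risen and 3.97% as fallen at 48 h. Of 26 G protein subunit genes in the authors' deposited table, 2 rose and 0 fell at 48 h, with 20 above 0 and a median of 0.09. One was Gnaz, an alpha subunit of the Gi class, at 0.58 and 0.75 (posterior probability 1.00, adjusted p 0.139 at 48 h). The other was Gng12, a gamma subunit, at 0.36 and 0.67 (posterior probability 0.984, adjusted p 0.171 at 48 h). Of 14 RGS genes and other G protein regulators, which shorten or prime the active state, 1 rose, Rgs12 at 0.54. Another 2 fell, Rgs9 at -1.04 and Ric8 at -0.64, the last with the Dox mark. Adjusted p-values at 48 h were 0.297 for Rgs12, 0.0431 for Rgs9 and 0.141 for Ric8. Of 21 receptor kinase, arrestin and sorting genes 0 were called, with a median of 0.03. The nearest to the threshold was Gprin1, which binds active G proteins, at 0.97 and 0.93 with 0.945 at 48 h.

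Effectors numbered 32, with 1 risen and 1 fallen at both times. At 24 h the rule called 0.450% of all genes as risen and 0.679% as fallen, and at 48 h 3.72% and 3.97%. The adenylyl cyclase Adcy9 stood at 0.55 at 24 h and 0.63 at 48 h per the authors' deposited table, with posterior probabilities of 0.994 and 0.998. Its adjusted p at 48 h was 0.244. Rapgef4, an exchange factor that responds to cyclic AMP, fell at both times, with -4.02 and -5.28 in the authors' deposited table and a posterior probability of 1.00 at each. Genes of leukotriene, prostaglandin and related lipid metabolism, 13 in the authors' deposited table, gave 0 calls and a median of -0.07 at 48 h. No enzyme that makes histamine is among these 13. Among them Alox5, which starts leukotriene synthesis, had -0.70 at 24 h and 0.12 at 48 h, its partner Alox5ap had -0.25 and 0.00, and Lta4h, which completes leukotriene B4, had 0.07 and 0.13.

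Receptors that the name pattern leaves out numbered 25 in the authors' deposited table, of 181 looked up. At 48 h 1 had risen and 1 had fallen, with a median of 0.12, beside 3.72% and 3.97% of all genes. At 24 h 1 had risen, beside 0.450% of all genes, and nothing is read from these counts. Tas1r1, a subunit of the umami taste receptor, stood at 0.55 and 1.33 with an adjusted p of 0.0017 at 48 h. The adhesion receptor Cd97 stood at -0.49 and -0.76, called at 48 h with an adjusted p of 0.0899. Chrm4, a muscarinic acetylcholine receptor, was called at 24 h with 0.67, though its adjusted p there was 0.998. At 48 h it had 0.28 per the authors' deposited table, with a posterior probability of 0.0513.

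**Figure D4:**
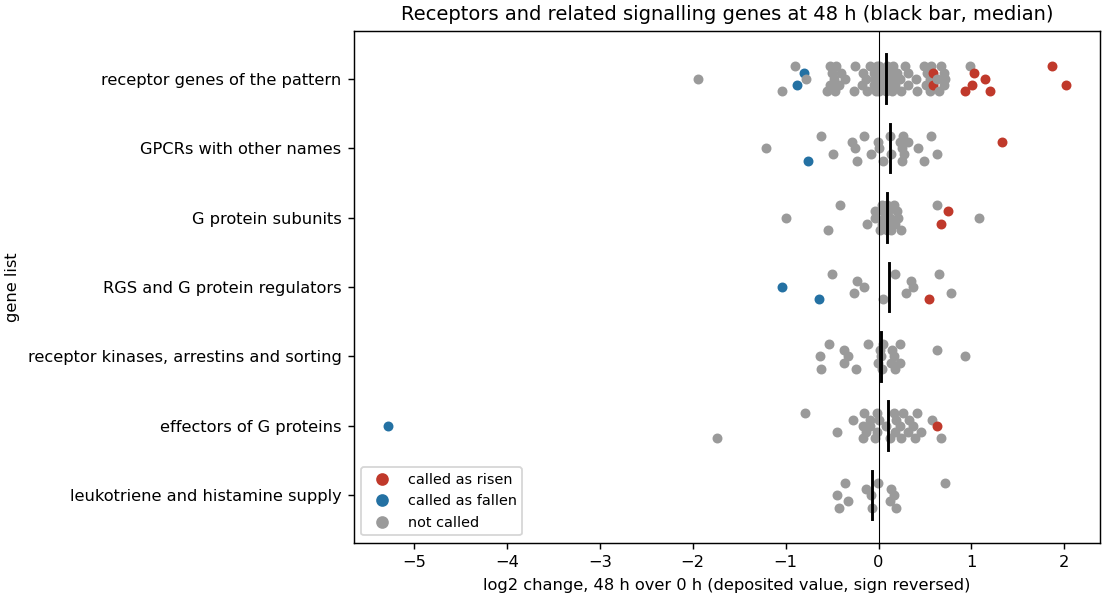
Log2 change at 48 h over 0 h (horizontal axis), 1 point per gene, for the members and 6 lists of related genes (rows), with a black bar at each median and called genes in colour. Medians lie between -0.07 and 0.12, and Rapgef4 at -5.28 is the farthest point.

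Promoter letters were counted for the 53 members that have an entry, in the same windows of 250 bases and on both strands. All genes in this paragraph are the 27025 with a promoter entry, not limited to the 12819 measured here, while every member was measured. The sets are thus unlike, and a background of measured genes was not counted. A GC box (GGGCGG) was found in 34 members, or 64.2%, against 35.4% of all genes, and in 6 of 6 called members with an entry. A gene with several annotated starts counts where any of its windows holds the letters, among members and all genes alike; of the 4 windows of Hrh1, 2 hold a GC box. The median GC content, taking each gene's window richest in GC, was 63.6% for members and 52.8% for all genes, and the part of base composition in the GC box counts was not tested. CCAAT was found in 45.3% of members against 37.5% of all genes, the TATA box TATAAA in 9.43% against 14.3%, the AP-1 letters TGANTCA in 15.1% against 7.82%, the E-box CACGTG in 5.66% against 6.86%, and the cyclic AMP element TGACGTCA in 1.89% against 1.77%. None of these strings of letters contains another. A missing match says only that the letters are not in the window.

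Over the 11 called members, 4 of the 22 nearest measured neighbours were called at 48 h, and Ltb4r1 and Ltb4r2 count for each other among these. The 22 include Atg7 beside Hrh1 and Cks2 beside S1pr3, which have no posterior probability at 48 h and could not be called. Over all genes, 3.72% were called as risen and 3.97% as fallen, and nothing is read from the neighbours' count. Lgr6 is followed in chromosome order by Ptprv, a phosphatase-like gene at 0.54 and 1.82 in the authors' deposited table (adjusted p 2.85e-09 at 48 h). Next comes Ptpn7, a tyrosine phosphatase at 0.13 and 0.64, and both Ptprv and Ptpn7 were called at 48 h. Ptprv, like Lgr6, carries the mark for a Dox effect at 48 h, and the part of Dox was not tested. The gene after Ptpn7, Arl8a, had 0.45 and 1.04 with a posterior probability of 0.927. Ube2t, on the other side of Lgr6, had -0.15 and -0.05. P2ry6 stands between P2ry2 and Arhgef17, a guanine nucleotide exchange factor that rose, at 0.52 and 0.75 in the authors' deposited table. Beside the leukotriene B4 receptors, Adcy4, an adenylyl cyclase, had -0.38 and -0.80 with a posterior probability of 5.71e-25 at 48 h, and 2610027L16Rik on the other side had 0.04 and -0.11.

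**Figure D5:**
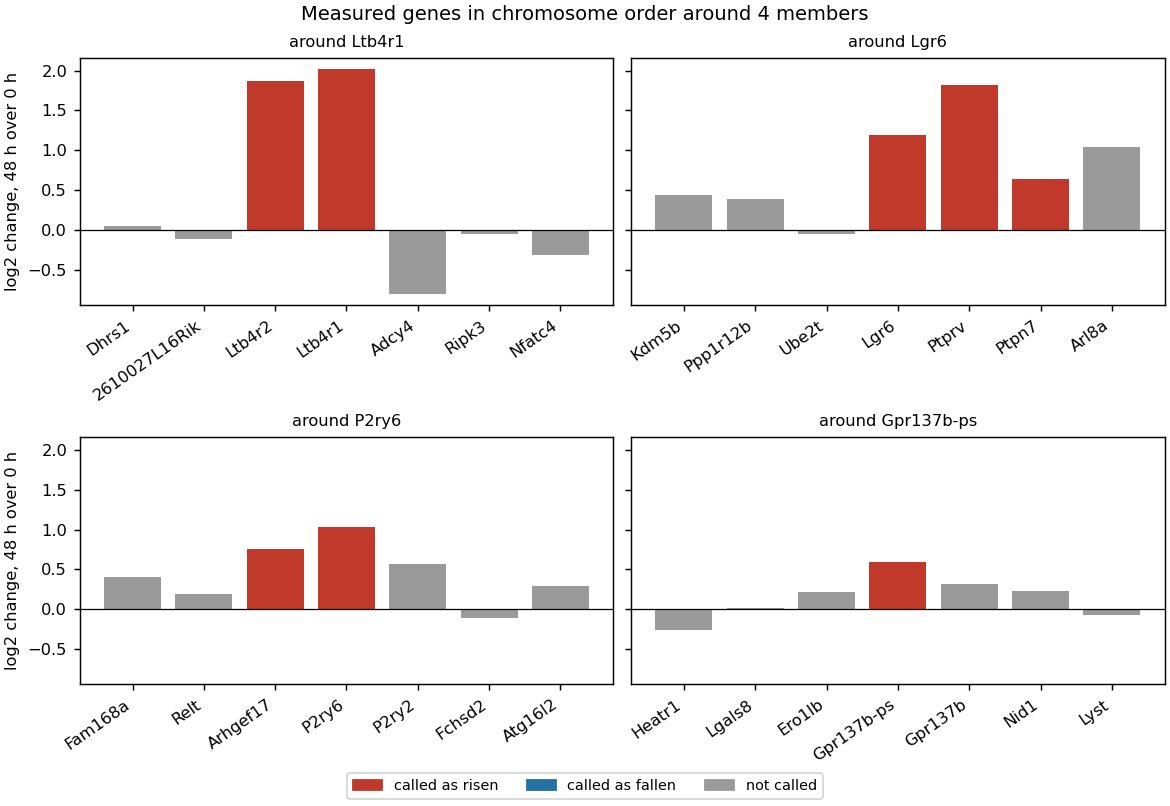
Log2 change at 48 h over 0 h (vertical axis) of measured genes in chromosome order, 3 on either side of Ltb4r1, Lgr6, P2ry6 and Gpr137b-ps, as bars from 0, red where called as risen. Ltb4r2 at 1.86 and Ltb4r1 at 2.01 stand together beside Adcy4 at -0.80. Lgr6 at 1.20 is followed by Ptprv at 1.82, and both carry the mark for a Dox effect at 48 h.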

How the data were processed

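PolyA RNA was measured in knockout clones 28 and 36 at 0, 24 and 48 h without Dox, and all values come from the authors' table of comparisons between times. Per the file headers it gives, for each time, a log2 fold change, a posterior probability of differential expression (a score from 0 to 1), an adjusted p-value and a mark, yes or no, for an effect of Dox. The log2 values in the table the authors deposited are per comparison, and values per library were not used here. The test behind the p-values the authors deposited was not given in the sources used here. Per the submitters' processing notes, STAR, RSEM and DESeq 1.22.1 were among the tools, and mm9 and mm10 the builds, with no role given, so only names and gene order were taken from the GRCm38.p6 annotation for the RNA values.

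Changes were multiplied by -1, so that they read 24 h or 48 h over 0 h. Genes were called at a posterior probability of at least 0.95, and those without one could not be called. They stayed out of the shares of members and of all genes, though the totals of families, related lists and neighbours include them. Members, families and related lists were chosen with earlier results of these data known. Named genes are every called member, those past the adjusted p, those with a posterior probability of at least 0.5 or none, the 5 largest other changes in each direction and time, up to 4 per family, and called genes of related lists. Other genes of related lists, Cdk12, the neighbours and the cell type markers named singly were chosen with their values seen. Results for a few single genes are left out, though the counts include them. Counts and medians were made with Python 3.11.15, pandas 2.3.3 and NumPy 2.4.6 and drawn with Matplotlib 3.10.9. The counting was tested on simulated data. Alternatives were posterior probability minimums of 0.9 and 0.99, minimum changes of 1.5-fold and 2-fold, the adjusted p as the call, removal of genes with the Dox mark, and members without genes that are not GPCRs or without the Frizzled and Celsr genes.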

Additional observations from a re-analysis of the deposited data

How the results depend on the processing

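At 48 h, 9 members rose, and the count lay between 6 and 9 under all alternatives except the adjusted p as the call, which gave 4. Over all genes, the main rule called 3.72% as risen and 3.97% as fallen at 48 h. The adjusted p passed 1.72% as higher and 1.99% as lower. Shares of all genes were not counted under the other alternatives, so nothing is read from how far the counts held. The fallen count at 48 h was 2; it was 1 at a posterior probability of at least 0.99, 1 with the adjusted p, 1 without the Frizzled and Celsr genes, which removes Fzd7, and 0 with a minimum change of 2-fold. At 24 h the 1 rise, of Hrh1, became 0 at a posterior probability of at least 0.99, with a minimum change of 2-fold and with the adjusted p. Apart from the removal of Fzd7, the cause was not tested. The median changes, 0.05 and 0.08, stayed above 0 in both alternatives run on them. Of single called members, Hrh1, Gpr137b-ps and Gpr133 lost the call at 48 h under each of 3 alternatives (0.99, 2-fold and the adjusted p), Gpr75 under 0.99 and the adjusted p, Celsr1 under 2-fold and the adjusted p, Fzd7 under 2-fold, and P2ry6 under the adjusted p. Ltb4r1, Ltb4r2 and S1pr3 kept it under all, and Lgr6 under all but the removal of genes with the Dox mark, which leaves it out. No paired analysis was possible because the table holds no values per library, and no replicate could be left out for the same reason. Depth and expression level are unknown. No count at an unadjusted p could be made.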

Other observations

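The called receptors S1pr3 and Celsr1 have called genes among the 3 measured neighbours on a side that are not next to them, picked here after their values were seen. In the authors' deposited table, Fbxw17, 3 places before S1pr3, had -0.50 at 24 h and -0.72 at 48 h with a posterior probability of 1.00 at 48 h, opposite in sign to S1pr3. Secisbp2, on the other side, had -0.30 and -0.92 in the authors' deposited table and was not called (0.823 at 48 h). Gtse1, 2 places before Celsr1, had 0.38 and 0.61 in the authors' deposited table, called at 48 h. Around Hrh1, Gpr75, Fzd7, Gpr133 and Gpr137b-ps, 0 of the 6 measured neighbours of each were called at 48 h. Atg7, beside Hrh1, has no posterior probability at 48 h and could not be called. Over all genes, 3.72% were called as risen and 3.97% as fallen, so nothing is read from which neighbours were called.

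In embryonic stem cells, the T cell receptor component Cd3e had -1.88 at 24 h and -2.04 at 48 h according to the authors' deposited table, called at both times, and the leukocyte integrin Itgam at -0.79 and -1.95, called at 48 h. They are the 2 of 9 immune markers that have a row. Ltb4r1 and Ltb4r2 had 2.01 and 1.86 at 48 h, and any part of immune cells in these changes was not tested.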
